A study of Mus musculus with 16 samples.

Results

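Germinal center B cells (GCB) were set against follicular B cells (FoB) from the spleens of wild-type (WT) mice by RNA sequencing, to describe what separates activated B cells inside the germinal center from resting B cells of the follicle. The comparison used every RNA library labelled WT, 3 of GCB and 3 of FoB, which are 6 of the 16 samples of the series. The other samples are 3 GCB and 3 FoB RNA libraries from conditional knockout (cKO) mice and 4 ATAC-seq samples of GCB, and the series concerns the kinase ROCK2 in germinal center B cell positioning and cholesterol synthesis. All mice were C57BL/6, 10 weeks old, and were immunized for 7 days with 100 µg of NP-CGG, a hapten coupled to a protein carrier, in the adjuvant alum. WT mice carry floxed Rock2 on both alleles (Rock2 flox/flox) and no Cre, so both cell types of this comparison keep Rock2, while cKO mice add CD23-Cre, which acts in mature B cells. The cells were FACS sorted, and the labels do not state the surface markers of the gates. Replicates are numbered 1 to 3 in each group, and the labels do not say whether a number is 1 mouse or a pool. The main fit holds replicate number as a term (the replicate block). Its p-values therefore set the difference of GCB and FoB only against its variation between the replicate numbers of these samples. That variation is estimated for each gene with help from all genes.

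A germinal center forms in the follicle after B cells meet antigen and receive help from T cells. Its B cells divide in the dark zone while their antibody genes are mutated, and are selected in the light zone for the binding of their receptor to antigen held on follicular dendritic cells. Follicular B cells are the resting, recirculating population from which most germinal center cells arise.

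The counts per library ran from 25436229 to 26100050 in GCB and from 23349512 to 26749989 in FoB. The first principal component held 78.8% of the variance and separated the cell types, with scores of 76.2 to 85.6 in GCB, against -70.2 in FoB replicate 1 and -83.7 and -85.4 in FoB replicates 2 and 3. The second held 10.6% and placed the replicate numbers in the same order in both cell types. Mitochondrial genes took 1.297% to 5.50% of counts in GCB and 1.83% to 3.72% in FoB, with the highest share in replicate 2 of each.

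FoB replicate 1 stood closer to GCB than the other FoB libraries did. Of 30 G2/M genes higher in GCB, its level was the highest of the FoB libraries for 30, at a median of 9.24% of the GCB mean, against 3.49% and 3.82% in FoB replicates 2 and 3. Of 17 germinal center genes higher in GCB it was the highest for 13, at a median of 3.80% of the GCB mean, against 1.74% and 2.02%. For single genes whose call changed without replicate 1, or whose fold change moved by more than 1.5 times, the value without it stands beside the result. Counts over lists are not all given without it. Hypermutation and class switching enzymes higher in GCB, for example, numbered 20, and 19 without replicate 1. The part of this library's germinal center and cell cycle RNA was not tested otherwise.

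B cell markers were abundant in both cell types. Pax5, which maintains B cell identity, was at 1215, 945 and 1282 CPM in GCB and 1337, 1601 and 1516 CPM in FoB replicates 1, 2 and 3 (CPM, counts scaled to library size with TMM, a normalization for library composition). Of 9 B cell markers, 1 was higher and 7 were lower in GCB, and their summed level was 9172 to 10115 CPM in GCB and 13959 to 17420.0 CPM in FoB. Defining markers of T and NK cells were low. Cd3e, a chain gene of the T cell receptor complex, was at 0.260, 0.252 and 0.0780 CPM in GCB and 0.813, 2.37 and 0.753 CPM in FoB. NK cell markers summed to 7.37 to 11.1 CPM in GCB and 25.8 to 73.4 CPM in FoB, and all 9 were lower in GCB. T cell markers summed to 71.6 to 94.7 CPM in GCB and 79.4 to 112 CPM in FoB, with 1 of 16 tested higher and 12 lower, and most of the sum was Lck, a kinase that B cells also express. Macrophage and monocyte markers summed to 15.0 to 32.1 CPM in GCB and 32.001 to 43.0 CPM in FoB (3 of 9 tested higher, 3 lower), and neutrophil markers to 0.741 to 12.2 CPM in GCB and 2.26 to 19.6 CPM in FoB (0 of 6 higher, 3 lower). The remaining sums rested largely on genes that other cells share, apart from the dendritic sum in FoB. Dendritic cell markers summed to 71.2 to 73.7 CPM in GCB and 15.1 to 22.6 CPM in FoB (1 of 5 tested higher and 3 lower). In GCB they were mostly the receptor gene Flt3, at 68.0, 67.3 and 67.7 CPM, while Batf3 had 0 counts in every GCB library. Flt3 was at 8.16, 6.52 and 4.98 CPM in FoB, where other dendritic markers made up most of the sum in replicates 2 and 3. Erythroid markers (109 to 207 CPM in GCB, 55.5 to 104 CPM in FoB, 2 of 4 tested higher and 2 lower) were mostly the transferrin receptor gene Tfrc. Platelet markers (94.4 to 107 CPM in GCB, 28.2 to 37.1 CPM in FoB) were nearly all the integrin gene Itgb3, the 1 gene tested, with Gp1ba at 0 in all 6 libraries. Stromal and endothelial markers (84.0 to 90.5 CPM in GCB, 365 to 407 CPM in FoB, 0 of 2 tested higher and 2 lower) were nearly all Pecam1, with Col1a2, Col3a1 and Cxcl13 at 0 in GCB. Marginal zone and B-1 cell markers summed to 588 to 602 CPM in GCB and 2599 to 2910.0 CPM in FoB (0 of 13 higher, 11 lower), with Cr2 and Notch2, which follicular cells also express, among the highest, and Fcrl5 at 5.64, 6.29 and 3.43 CPM in GCB and 149, 109.8 and 93.5 CPM in FoB. In bulk samples, fewer cells of a type and less RNA per cell cannot be told apart, and the part of these other cells in the results below was not tested.

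The cell types differed across most of the transcriptome. At an adjusted p under 0.05 in edgeR's quasi-likelihood test, 4548 of 12877 genes tested were higher in GCB (35.3%) and 4572 were lower (35.5%), so that 70.8% passed in either direction. Without the replicate block 3215 were higher and 3008 lower, and all 6223 of them were also called with it. The counts of list members called below stand against these shares and counts over all genes. At least 2-fold differences were called for 2014 higher genes (15.6%) and 2327 lower genes (18.1%), and 274 and 135 genes passed 16-fold. The median log2 fold change over all genes, GCB over FoB, was -0.03. All 3 GCB libraries lay above all 3 FoB libraries for 3776 genes (29.3%) and below them for 3574 (27.8%). Among 198 immunoglobulin variable genes tested, 157 were lower and 9 higher in GCB, with a median log2 fold change of -1.51.

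**Figure D1:**
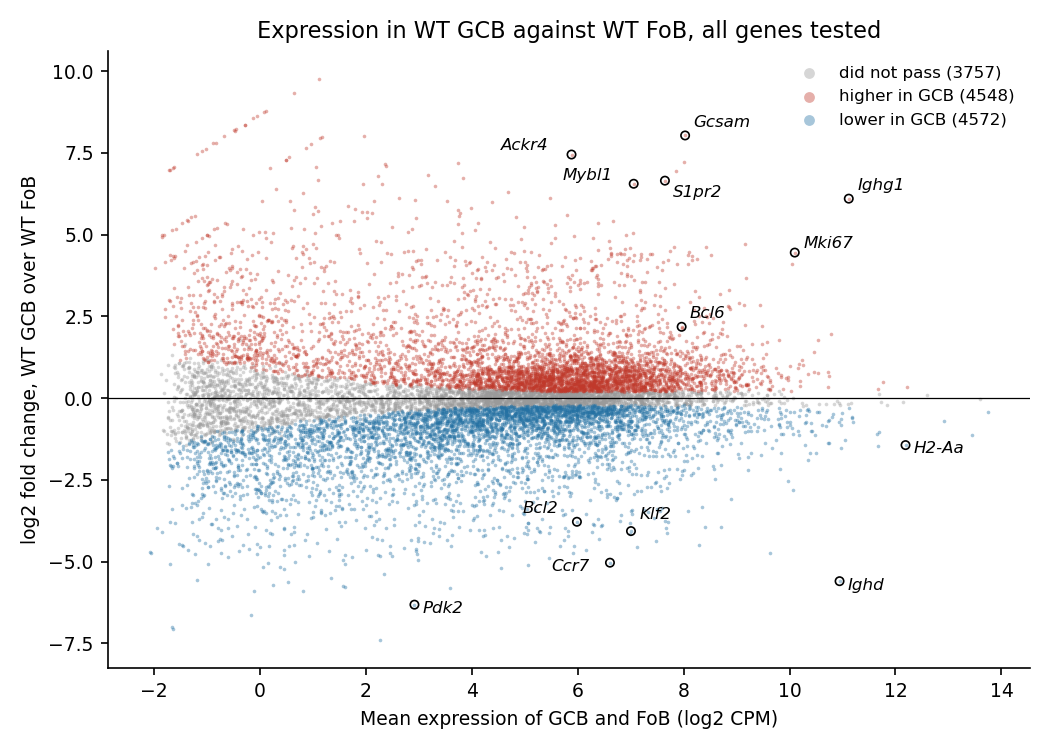
Each point is a gene, with its mean level over the 6 WT libraries (log2 CPM, horizontal axis) and its log2 fold change, GCB over FoB (vertical axis), and colours mark genes higher in GCB, lower in GCB or not past the test. The 4548 higher and 4572 lower genes spread to both sides of 0 over the whole range of levels, with Gcsam and S1pr2 near the top and Pdk2 near the bottom. Fitted values of genes with 0 counts in every library of a cell type depend on the prior count of the fit.

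Differences upward were ranked among genes with at least 10 CPM in GCB that were called with and without the block and whose groups did not overlap, leaving out immunoglobulin and predicted genes. Gcsam, an adaptor of B cell receptor signaling and motility, came first, at 544, 615 and 402 CPM in GCB and 5.18, 0.561 and 0.795 CPM in FoB replicates 1, 2 and 3, a log2 fold change of 8.04 ± 0.47 (SE). Values in brackets after a gene's levels are its log2 fold change ± SE in the same fit, and genes are called higher or lower where the adjusted p was under 0.05. Every GCB library was far above every FoB library, and FoB replicate 1 was the highest of the FoB libraries. Without replicate 1 the log2 fold change of Gcsam was 9.52, and without replicate 2 it was 7.39. S1pr2, a sphingosine-1-phosphate receptor that holds cells in the germinal center, was at 350.3, 380.4 and 461 CPM in GCB and 6.67, 2.33 and 3.10 CPM in FoB (6.65 ± 0.29 on the log2 scale, 7.28 without replicate 1). Mybl1, a transcription factor of dividing germinal center cells, was at 313, 262 and 216 CPM in GCB and 5.62, 1.94 and 1.38 CPM in FoB (6.56 ± 0.26, 7.17 without replicate 1). The 3 FoB libraries together held 185 counts of Gcsam, 325 of S1pr2 and 244 of Mybl1, the highest level of each in replicate 1. On build GRCm38.p6, Gcsam lies on chromosome 16, 45610440 to 45622867, S1pr2 on chromosome 9, 20965952 to 20976793 and Mybl1 on chromosome 1, 9667407 to 9700439.

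Another 8 of the 12 largest higher genes ranged from a chemokine scavenger to a globin. Ackr4, a scavenger of the chemokines CCL19, CCL21 and CCL25, was at 121, 130.3 and 101 CPM in GCB and 1.69, 0.0864 and 0.125 CPM in FoB. Its log2 fold change was 7.45, with 10.02 without replicate 1 and 6.86 without replicate 2, and the gene overlaps Acad11, so that its reads cannot be told apart from that gene's where strand was not used. Ehf, an ETS family transcription factor, was at 31.6, 29.9 and 18.7 CPM in GCB and 0.372, 0 and 0.125 CPM in FoB (7.20, with 8.44 and 6.58 without replicates 1 and 2, the first resting on very few FoB counts and on the prior count of the fit). Lhfpl4, known for placing GABA receptors at synapses of neurons, was at 18.1, 16.02 and 19.8 CPM in GCB and 0.372, 0 and 0.0418 CPM in FoB (6.83, with 9.42 without replicate 1, which likewise rests on the prior count). Hbb-bh1, an embryonic globin gene, was at 47.5, 52.9 and 53.1 CPM in GCB and 1.49, 0.259 and 0.0837 CPM in FoB (6.30, 8.25 without replicate 1), while the adult globin gene Hbb-bs was at 0.890, 0.839 and 0.546 CPM in GCB and 3.42, 2.16 and 0.837 CPM in FoB. Next to these were Evc, a ciliary protein gene (7.18, and 6.55 and 7.98 without replicates 2 and 3), the linker histone gene H1fx (7.10, 8.18 and 6.29 without replicates 1 and 3), the nuclear GTPase gene Nuggc (6.95, 7.83 without replicate 1) and Adhfe1, a mitochondrial dehydrogenase gene (6.49).

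The 12 largest lower genes took in enzymes, receptors and interferon-linked genes. Pdk2, a kinase that restrains pyruvate entry into mitochondria, was at 0.0742, 0.168 and 0.312 CPM in GCB and 11.6, 16.7 and 16.5 CPM in FoB (log2 fold change -6.31 ± 0.26, adjusted p = 3.42e-08). Fcgrt, the heavy chain of the neonatal Fc receptor, was at 1.48, 0.587 and 1.48 CPM in GCB and 30.8, 53.9 and 51.8 CPM in FoB (-5.21 ± 0.27). Plaur, the urokinase receptor, was at 1.71, 1.64 and 2.34 CPM in GCB and 59.4, 60.1 and 76.4 CPM in FoB (-5.11 ± 0.12). The groups did not overlap in any of these, which the ranking required of every gene in it. Others among the 12 were the phosphatase gene Ptpn14 (-5.79), the chemokine receptor gene Ccr7 (-5.03), Lilra6 (-4.96), the cytokine gene Osm (-4.84), Gbp7 (-4.81), the kinase gene Tnik (-4.77), Trim30c (-4.73, -5.37 without replicate 2) and Peg13, an imprinted noncoding RNA gene lying within Trappc9 (-4.73). Lilra6, Gbp7 and Trim30c belong to families of near copies, and their counts are uncertain for that reason.

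Of 18 germinal center genes tested, 17 were higher in GCB (against 35.3% of all genes) and 1 was lower, with a median log2 fold change of 5.14 against -0.03 over all genes. Bcl6, the repressor that the germinal center fate needs, was at 387, 370.4 and 465 CPM in GCB and 64.8, 95.2 and 115 CPM in FoB (2.18 ± 0.13). Mef2b, a transcription factor acting upstream of Bcl6, was at 70.1, 80.9 and 176 CPM in GCB and 1.93, 1.73 and 2.64 CPM in FoB (5.62 ± 0.16). Fas, a death receptor that marks germinal center cells, was at 107, 117 and 90.9 CPM in GCB and 9.52, 8.64 and 6.02 CPM in FoB (3.71 ± 0.11). The exception was Pdcd1lg2, which encodes the ligand PD-L2, at 6.45, 6.54 and 7.10 CPM in GCB and 12.6, 19.0 and 15.5 CPM in FoB (-1.21 ± 0.15). By replicate number, the list's median log2 difference was 4.61, 5.36 and 5.28.

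Naive follicular genes ran the other way, with 17 of 18 lower in GCB (against 35.5% of all genes), 1 higher and a median of -3.60. Klf2, a transcription factor of resting, recirculating lymphocytes, was at 20.7, 10.9 and 12.8 CPM in GCB and 212, 273 and 243 CPM in FoB (-4.06 ± 0.21). Cd38, a surface enzyme that mouse germinal center B cells lose, was at 29.7, 38.1 and 27.0 CPM in GCB and 332, 408 and 257 CPM in FoB (-3.38 ± 0.10). Zbtb20, a zinc finger repressor, was the member that was higher, at 144, 70.8 and 82.1 CPM in GCB and 29.3, 20.04 and 33.3 CPM in FoB (1.81 ± 0.16). For these naive genes the median log2 difference was -3.53, -3.53 and -3.41 in replicates 1, 2 and 3.

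**Figure D2:**
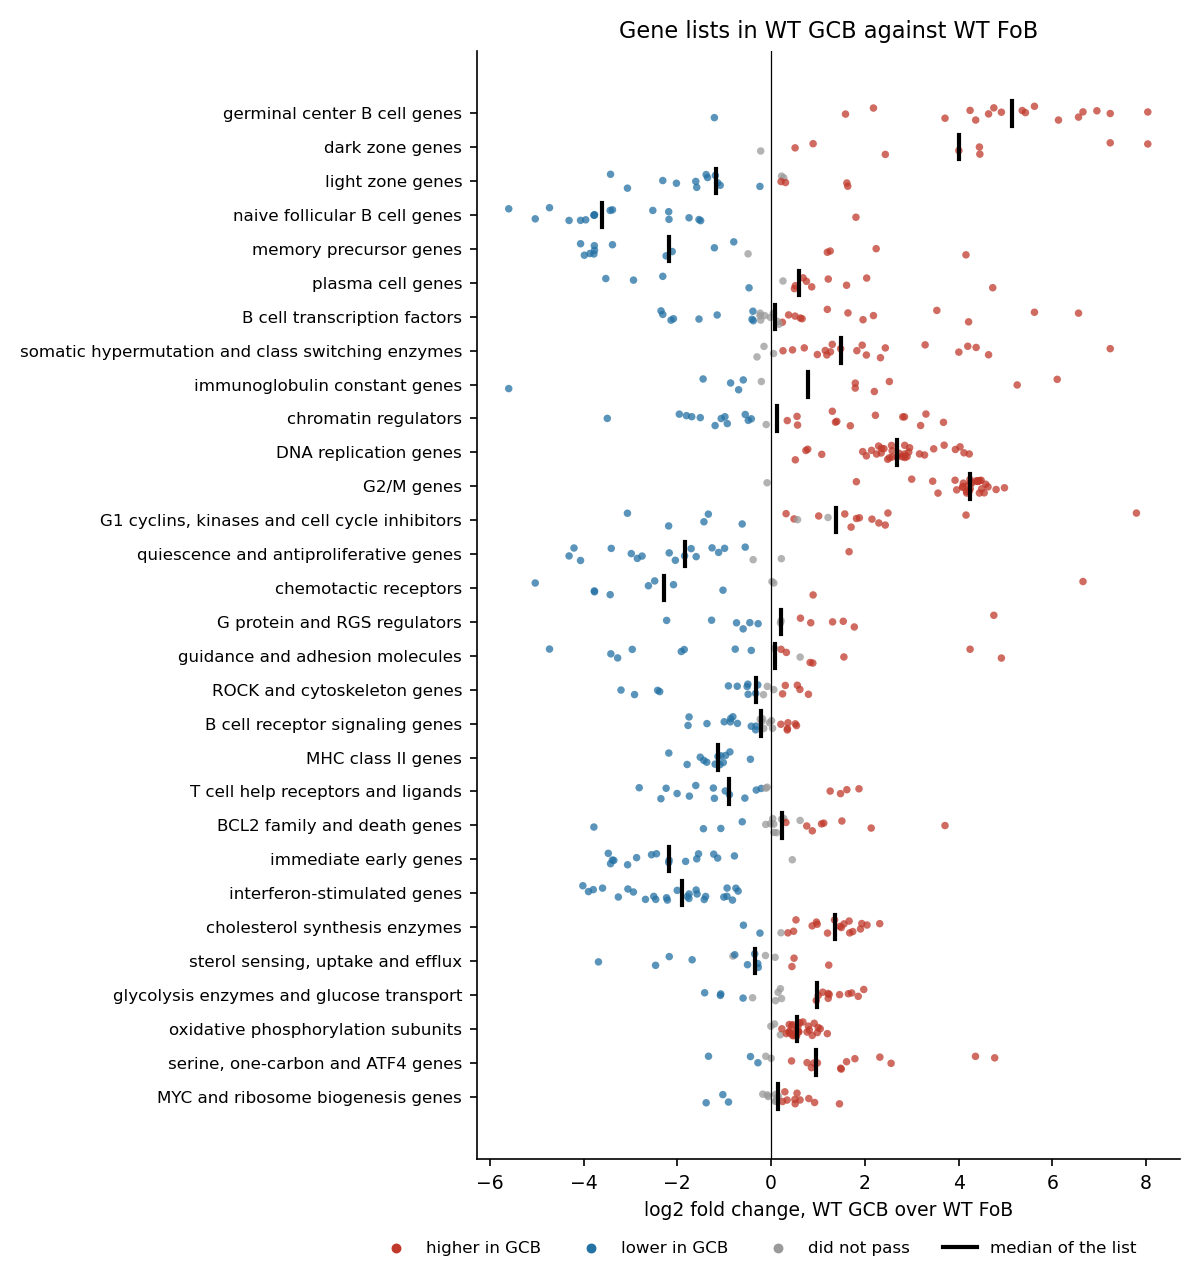
Each dot is a tested gene of the list named on the left, placed by its log2 fold change, GCB over FoB (horizontal axis), coloured by whether it was higher, lower or not past the test, with a bar at the list's median. The G2/M and DNA replication lists lie to the right of 0 apart from Pttg1, and the MHC class II and interferon-stimulated lists lie wholly to its left, while Cdkn2a, the point farthest right among the G1 genes, had 0 counts in FoB and its place depends on the prior count of the fit.

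The labels name no zone within GCB, so the genes that mark its zones were compared with FoB and not with each other. Of 9 dark zone genes, 8 were higher and 0 lower in GCB (median 4.01). Polh, the polymerase that copies past DNA damage, was at 335, 396 and 291 CPM in GCB and 25.5, 17.7 and 20.5 CPM in FoB (4.01 ± 0.15). Cxcr4, the receptor that draws cells into the dark zone, was at 219, 245 and 204 CPM in GCB and 114, 182 and 81.8 CPM in FoB, without overlap (0.90 ± 0.14, adjusted p = 3.18e-04, and 0.0845 without the block and FoB replicate 1). Foxo1, which the dark zone program needs, did not pass, at 266, 253 and 253 CPM in GCB and 255, 356 and 297 CPM in FoB (-0.22 ± 0.11), but was called lower without replicate 1 (-0.36, adjusted p = 0.00771). Light zone genes, most of which are activation genes, were largely below FoB: 12 of 18 were lower and 4 higher (2 higher without the block, and likewise with the block but without replicate 3), with a median of -1.16. Cd86, a ligand that costimulates T cells, was among those higher, at 115, 119 and 93.9 CPM in GCB and 42.1, 38.8 and 27.1 CPM in FoB (1.62 ± 0.10), whereas Cd83, another light zone surface protein, was at 191, 249 and 261 CPM in GCB and 490.2, 583 and 514 CPM in FoB (-1.19 ± 0.10). Myc, a growth regulator of selected light zone cells, was at 50.0, 38.5 and 51.5 CPM in GCB and 149, 96.7 and 123 CPM in FoB (-1.38 ± 0.10). Icam1, an adhesion molecule called slightly higher (0.21 ± 0.08), lost its call when any 1 replicate number was left out (adjusted p = 0.143, 0.0676 and 0.174 without replicates 1, 2 and 3).

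Of 30 B cell transcription factors, 13 were higher, 9 lower and 8 did not pass (median 0.09), shares near the 35.3% higher and 35.5% lower of all genes. Besides Mybl1, Mef2b and Bcl6, those higher included Pou2af1, the octamer coactivator that germinal centers need, at 2672, 3219 and 2529 CPM in GCB and 681, 835 and 647 CPM in FoB (1.96 ± 0.09). Bach2, which holds back plasma cell fate, was at 678, 468 and 707 CPM in GCB and 222, 261 and 319 CPM in FoB (1.20 ± 0.13). Irf4, which drives activation and plasma cell fate, was at 41.4, 54.4 and 36.2 CPM in GCB and 223, 201 and 223 CPM in FoB (-2.31 ± 0.14). Tcf3, which encodes the E2A proteins, was higher (0.51 ± 0.10), but not without the replicate block (adjusted p = 0.262). Irf8 and Batf did not pass, with log2 fold changes of -0.01 ± 0.09 and 0.05 ± 0.12.

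Enzymes of somatic hypermutation and class switching were mostly higher: 20 of 23 were higher, 0 lower and 3 did not pass (median 1.48). Beyond Polh, Hmces, which shields abasic sites, was at 694, 757 and 660.0 CPM in GCB and 34.3, 31.9 and 35.4 CPM in FoB (4.37 ± 0.11). Fam72a, which limits the uracil glycosylase UNG2, was at 27.6, 35.5 and 20.8 CPM in GCB and 2.74, 1.04 and 0.795 CPM in FoB (4.20 ± 0.28, 4.92 without replicate 1). Ung itself, which removes uracil from DNA, was at 40.2, 46.6 and 54.7 CPM in GCB and 12.3, 11.3 and 12.9 CPM in FoB (1.94 ± 0.11), and Neil1, a base excision glycosylase, differed by 4.64 ± 0.15. Prkdc and Trp53bp1, which act in end joining of the breaks of class switching, were among the 3 that did not pass, at log2 fold changes of 0.05 ± 0.09 and -0.15 ± 0.09.

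Heavy chain constant genes, which set the antibody class, held some of the largest differences in either direction. Ighg1, the IgG1 gene, was at 3805, 5175 and 4131 CPM in GCB and 144, 51.0 and 34.6 CPM in FoB (log2 fold change 6.10 ± 0.41, 6.79 without replicate 1). Ighd, the IgD gene of resting cells, was at 99.0, 80.5 and 59.8 CPM in GCB and 3405, 5019 and 3161 CPM in FoB (-5.60 ± 0.18). Ighm, the IgM gene, was at 5067, 7339 and 5303 CPM in GCB and 8114, 11279 and 9088 CPM in FoB (-0.69 ± 0.10), a far smaller difference. The other IgG genes were higher too, by 2.20 for Ighg2b, 1.80 for Ighg2c and 2.52 for Ighg3, and so was the IgE gene Ighe, at 66.6, 64.6 and 53.6 CPM in GCB and 3.35, 1.17 and 0.502 CPM in FoB (5.25, 6.16 without replicate 1). Igha, the IgA gene, overlapped between the groups and did not pass, at 59.9, 249.6 and 48.7 CPM in GCB and 107, 179 and 58.8 CPM in FoB (-0.21 ± 0.20), but was called lower without replicate 2 (-0.59, adjusted p = 0.00189). In all, 6 of 12 constant genes were higher and 5 lower (median 0.79), and the light chain gene Igkc was at 1322, 2262 and 1687 CPM in GCB and 3828, 6259 and 4287 CPM in FoB (-1.45 ± 0.09). The gene counts do not separate sterile from switched transcripts, and near-identical constant genes can share reads.

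**Figure D3:**
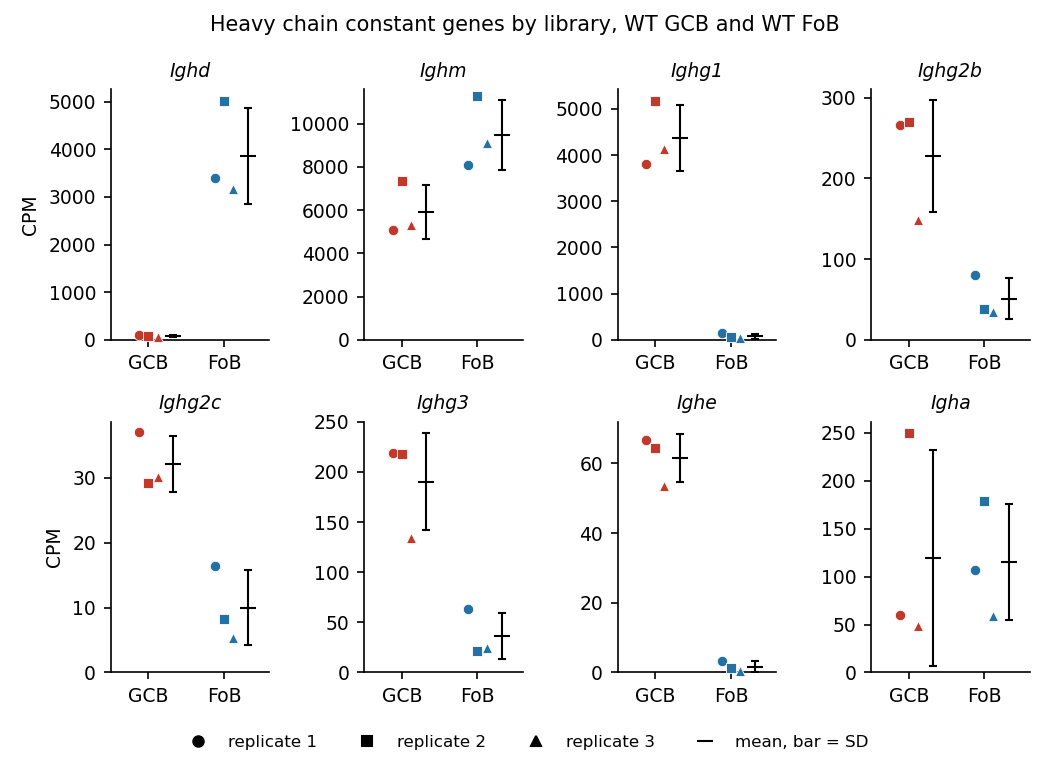
Points give the level of each heavy chain constant gene in each WT library (CPM, a separate axis for each gene), with GCB left of FoB, symbols for the replicate numbers and bars for the mean and SD. Ighg1 is at 3805 to 5175 CPM in GCB and 34.6 to 144 CPM in FoB, Ighd is at 59.8 to 99.0 CPM in GCB and 3161 to 5019 CPM in FoB, and Igha overlaps between them.

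Receptors that place B cells in lymphoid tissue were mostly lower: of 12 chemotactic receptors, 2 were higher (S1pr2 and Cxcr4), 8 lower and 2 did not pass (median -2.28). S1pr1, which lets lymphocytes leave the tissue, was at 32.4, 31.8 and 20.2 CPM in GCB and 389, 404 and 335 CPM in FoB (-3.77 ± 0.12), opposite to S1pr2. Ccr7, which leads to the T cell zone, was at 4.38, 7.63 and 5.38 CPM in GCB and 142, 248 and 179 CPM in FoB (-5.03 ± 0.10). Gpr183, the oxysterol receptor EBI2 that leads to the outer follicle, was at 7.27, 12.6 and 10.8 CPM in GCB and 93.3, 128 and 105 CPM in FoB (-3.43 ± 0.11). Cxcr5, the receptor for entry into the follicle, was lower by less, at 164, 237 and 212 CPM in GCB and 324, 507 and 425 CPM in FoB (-1.03 ± 0.08). The groups overlapped in none of these 4 genes. S1pr3 and Cxcr3 did not pass, at 0.06 ± 0.12 and 0.02 ± 0.22.

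**Figure D4:**
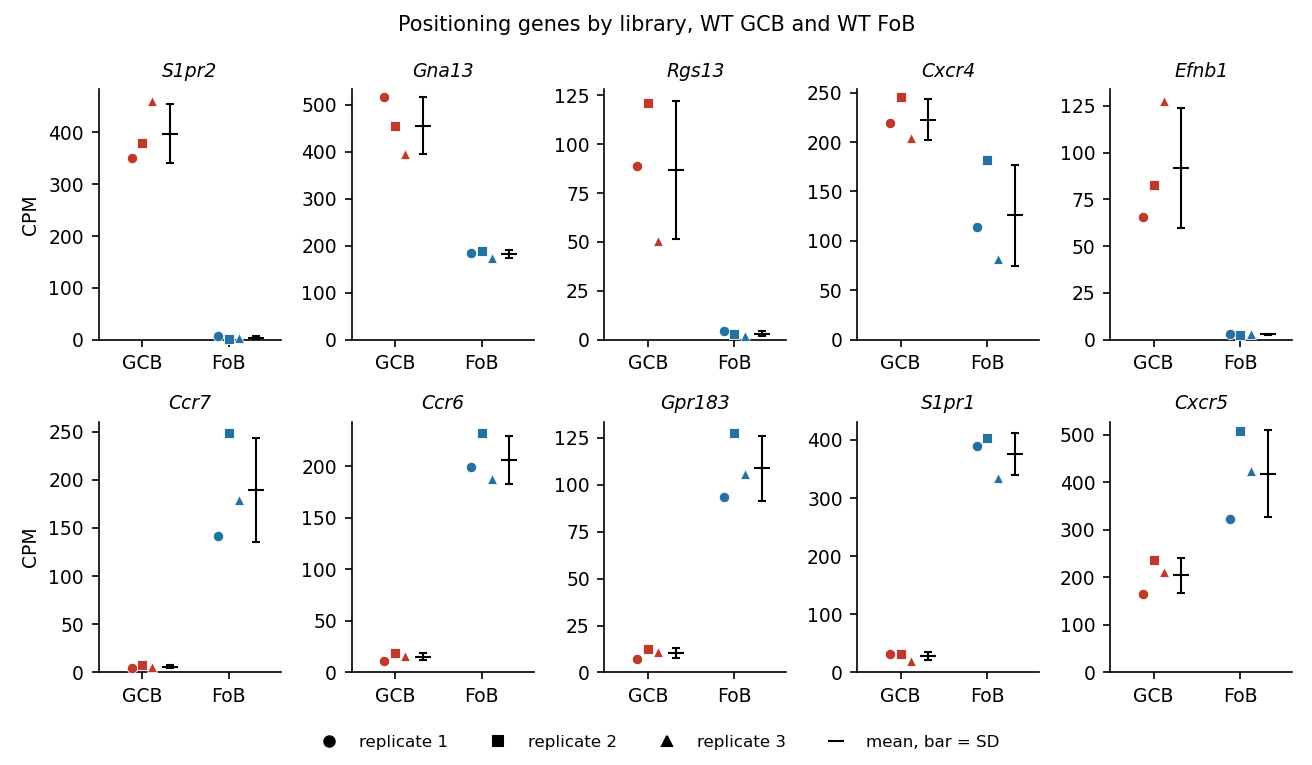
Points give the level of positioning genes in each WT library (CPM, a separate axis for each gene), with GCB left of FoB, symbols for the replicate numbers and bars for the mean and SD. S1pr2 is high in all GCB libraries, while S1pr1, Ccr7 and Gpr183 are high in all FoB libraries.

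Proteins that pass on or curb the signals of these receptors were called in both directions, as genes in general were. Of 14 G protein and RGS genes, 6 were higher, 6 lower (3 without the block and FoB replicate 1) and 2 did not pass (median 0.21), against 35.3% higher and 35.5% lower of all genes. Gna13, the G protein subunit through which S1PR2 confines germinal center cells, was at 516, 455 and 395 CPM in GCB and 185, 188 and 174 CPM in FoB (1.31 ± 0.09). Rgs13, which shortens chemokine receptor signals, was at 89.0, 121 and 50.4 CPM in GCB and 4.61, 3.15 and 1.76 CPM in FoB (4.75 ± 0.17), whereas Rgs3 was at 3.45, 3.15 and 4.21 CPM in GCB and 15.0, 16.5 and 19.2 CPM in FoB (-2.23 ± 0.14). Of 17 guidance and adhesion genes, 7 were higher and 8 lower (median 0.07). Those higher included Efnb1, an ephrin that slows T cells in the germinal center, at 65.3, 82.5 and 128 CPM in GCB and 2.84, 2.68 and 3.30 CPM in FoB (4.91 ± 0.15), and Plxnb2, a plexin through which germinal center B cells act on T cells (4.25 ± 0.17). Itgb7, an integrin chain for homing to the gut, was at 15.0, 29.2 and 23.4 CPM in GCB and 170.0, 287 and 257 CPM in FoB (-3.42 ± 0.10).

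Genes of the ROCK pathway and its targets, which run the contractile cytoskeleton, were 5 higher, 11 lower and 3 not past of 19 (median -0.33). Of all genes, 35.3% were higher and 35.5% lower. Without the block 3 of the list were higher and 6 lower, against 3215 and 3008 of all 12877 genes tested. The counts were 2 and 7 without the block and FoB replicate 1, and 3 were higher with the block but without replicate 1. Rock2 was at 192, 155 and 141 CPM in GCB and 147, 128 and 133 CPM in FoB, and its small difference (0.25 ± 0.09, adjusted p = 0.0347) lost its call without the block (adjusted p = 0.238) and without replicate 1 or 2 (adjusted p = 0.180 and 0.108). Rock1 was at 259, 234 and 166 CPM in GCB and 189, 179.8 and 157 CPM in FoB (0.30 ± 0.10, adjusted p = 0.0182), and its call was lost in the same 3 settings (adjusted p = 0.202 without the block, 0.0824 without replicate 1 and 0.0809 without replicate 2). Limk1, a kinase downstream of ROCK that acts on cofilin, was at 2.26, 2.47 and 3.63 CPM in GCB and 18.3, 19.4 and 24.9 CPM in FoB (-2.91 ± 0.14). Rhob, a small GTPase of early response, was at 15.98, 4.82 and 6.28 CPM in GCB and 78.3, 91.8 and 61.2 CPM in FoB (-3.20 ± 0.28), and Rhoa did not pass (0.06 ± 0.08).

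Cell cycle genes were higher almost throughout. All 35 DNA replication genes were higher in GCB, with a median of 2.69, and 30 of 31 G2/M genes were higher, with a median of 4.25. Mcm4, a subunit of the replicative helicase, was at 618, 727 and 506 CPM in GCB and 110.3, 109.6 and 87.5 CPM in FoB (2.58 ± 0.09). Plk1, the mitotic kinase, was at 183, 255 and 265 CPM in GCB and 10.6, 4.62 and 7.20 CPM in FoB (4.98 ± 0.27). Mki67, the proliferation marker Ki-67, was at 2804, 1345 and 2119 CPM in GCB and 181, 53.4 and 78.1 CPM in FoB (4.45 ± 0.17). Cdc20, an activator of the anaphase-promoting complex, was at 278, 336 and 326 CPM in GCB and 21.3, 11.7 and 12.3 CPM in FoB (4.41 ± 0.21), and it overlaps Elovl1. In each of Plk1, Mki67 and Cdc20 the FoB replicate 1 library was the highest of the FoB libraries, and the list's median log2 difference was 3.36 in replicate 1, against 4.82 and 4.56 in replicates 2 and 3. Ccnb1, the mitotic cyclin gene, differed by 4.80, and by 5.42 without replicate 1. Pttg1, the securin gene, was the G2/M gene that did not pass, at 22.3, 23.3 and 19.0 CPM in GCB and 22.5, 22.8 and 23.1 CPM in FoB (-0.09 ± 0.11).

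Promoters of these lists were searched for known cell cycle elements, as letters only. The share over a list depends on which genes it holds, not on their levels in these samples. RefSeq promoters (build GRCm38.p6, 250 bases before to 50 after the start, either strand) were at hand for 26 of 31 G2/M genes and 29 of 35 replication genes. The CHR element, TTTGAA, to which the MuvB complexes that time mitotic genes can bind, was in 20 of 27 G2/M promoters (74.1%), 5 of 35 replication promoters (14.3%), 12.5% of promoters of all genes tested and 17.9% of all 32851 promoters. CCAAT, a box bound by NF-Y, was in 81.5% of G2/M promoters, 60% of replication promoters and 37.4% of all promoters. E2F words (TTTCCCGC, TTTCGCGC, TTTGCCGC or TTTGGCGC, which can overlap each other while none contains CCAAT or CHR) were in 13 of 35 replication promoters (37.1%), 7.41% of G2/M promoters and 2.27% of all promoters. Genes at least 2-fold higher held CHR in 17% and E2F words in 7.06% of promoters, against 13% and 2.09% for genes at least 2-fold lower. The 250 bases before the start are shown for 2 mitotic and 2 replication genes, in which capitals mark CHR and CCAAT (Cdc20 and Mki67) or E2F words and CCAAT (Rfc3 and Pola1).
Cdc20, chr4:118437344-118437593, minus strand: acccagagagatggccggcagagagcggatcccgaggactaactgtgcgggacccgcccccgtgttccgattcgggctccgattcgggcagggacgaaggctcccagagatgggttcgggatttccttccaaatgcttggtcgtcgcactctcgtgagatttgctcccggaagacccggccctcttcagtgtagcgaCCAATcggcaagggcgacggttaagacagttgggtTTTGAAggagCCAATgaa
Mki67, chr7:135716380-135716629, minus strand: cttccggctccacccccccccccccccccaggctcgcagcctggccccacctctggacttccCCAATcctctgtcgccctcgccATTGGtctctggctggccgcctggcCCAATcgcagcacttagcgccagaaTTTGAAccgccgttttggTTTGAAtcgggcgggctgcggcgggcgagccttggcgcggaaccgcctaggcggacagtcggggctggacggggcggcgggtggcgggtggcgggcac
Rfc3, chr5:151651209-151651458, minus strand: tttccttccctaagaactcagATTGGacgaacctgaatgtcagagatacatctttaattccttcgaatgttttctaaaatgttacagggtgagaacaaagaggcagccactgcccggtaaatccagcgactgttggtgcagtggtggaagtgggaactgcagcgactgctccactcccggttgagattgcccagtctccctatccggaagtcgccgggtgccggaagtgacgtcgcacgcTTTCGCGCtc
Pola1, chrX:93632156-93632405, minus strand: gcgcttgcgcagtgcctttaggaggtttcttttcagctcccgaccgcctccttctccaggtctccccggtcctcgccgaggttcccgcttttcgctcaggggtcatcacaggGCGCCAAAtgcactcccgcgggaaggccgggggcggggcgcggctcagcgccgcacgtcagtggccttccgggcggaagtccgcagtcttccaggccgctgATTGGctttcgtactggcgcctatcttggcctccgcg
In Cdc20 CHR began 18 bases before the start, with CCAAT beginning 53 and 8 bases before it, and Mki67 had 2 CHR matches, beginning 116 and 98 bases before the start. The E2F word of Rfc3, a clamp loader subunit, began 10 bases before the start, and that of Pola1, the catalytic subunit of polymerase alpha, began 138 bases before it. Rfc3 was at 122, 130.4 and 113 CPM in GCB and 27.6, 24.7 and 22.4 CPM in FoB (2.29 ± 0.09), and Pola1 was at 337, 386 and 225 CPM in GCB and 46.8, 37.7 and 22.8 CPM in FoB (3.17 ± 0.12).

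Regulators of the G1 phase did not move as 1 block: 13 of 20 were higher, 5 lower and 2 did not pass (median 1.39). The D cyclins diverged. Ccnd3, the D cyclin that germinal center expansion needs, was at 248, 281 and 382 CPM in GCB and 58.7, 68.2 and 75.8 CPM in FoB (2.15 ± 0.10). Ccnd2 was at 19.5, 28.6 and 21.1 CPM in GCB and 219, 179 and 176 CPM in FoB (-3.06 ± 0.15). The E cyclin genes Ccne1 and Ccne2 were higher, by 2.299 ± 0.17 and 4.16 ± 0.27, the second by 4.78 without replicate 1. Cdkn1b, which encodes the inhibitor p27, was at 19.1, 13.9 and 20.3 CPM in GCB and 90.3, 68.8 and 82.0 CPM in FoB (-2.18 ± 0.10). Of 19 quiescence and antiproliferative genes, 16 were lower and 1 higher (median -1.84), with Klf3 at -4.31 ± 0.12, Pik3ip1, an inhibitor of PI3-kinase, at 2.04, 1.68 and 1.91 CPM in GCB and 29.1, 33.8 and 42.5 CPM in FoB (-4.20 ± 0.16), and Slfn2 at -2.75 ± 0.09. Tsc1 did not pass (0.22 ± 0.10).

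Chromatin regulators were 13 higher, 12 lower and 1 not past of 26 (median 0.12). The directions were about as even as over all genes (35.3% higher, 35.5% lower), but more of the list was called than the 70.8% of all genes. Ezh2, the Polycomb methyltransferase that germinal centers need, was at 362, 357 and 261 CPM in GCB and 72.0, 35.4 and 37.9 CPM in FoB (2.81 ± 0.17), while its relative Ezh1 differed by -1.80 ± 0.09. Dnmt1, which maintains DNA methylation, was at 1196, 1152 and 1319 CPM in GCB and 178, 158 and 173 CPM in FoB (2.85 ± 0.09). Lower genes included Tet2, a DNA demethylation enzyme often lost in lymphoma, at 12.6, 4.11 and 8.54 CPM in GCB and 49.8, 14.8 and 34.8 CPM in FoB (-1.96 ± 0.11), and the acetyltransferase gene Crebbp, at 93.1, 43.7 and 90.7 CPM in GCB and 121, 134 and 162 CPM in FoB (-0.93 ± 0.19). The methyltransferase gene Kmt2d was lower too (-1.06 ± 0.20), but not without the block (adjusted p = 0.174). Ep300 was called lower (-0.42 ± 0.14) and lost the call without the block (adjusted p = 0.151) and without replicate 2 or 3 (0.0866 and 0.0775).

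Enzymes of cholesterol synthesis, a pathway named in the title of the series, were higher in GCB: 18 of 21 were higher, 2 lower and 1 did not pass (median 1.35). Hmgcs1, the synthase of an early step, was at 205, 215 and 162 CPM in GCB and 61.6, 64.4 and 55.0 CPM in FoB (1.68 ± 0.09). Sqle, which oxidizes squalene, was at 129, 146 and 123 CPM in GCB and 33.2, 35.8 and 27.6 CPM in FoB (2.05 ± 0.09). The groups did not overlap in either gene. Ggps1, on a side branch of the pathway, makes the geranylgeranyl group that anchors small GTPases. It was at 34.8, 38.8 and 29.2 CPM in GCB and 53.7, 57.7 and 43.3 CPM in FoB (-0.59 ± 0.09, adjusted p = 1.53e-04, and 0.0565 without the block and FoB replicate 1). Ebp, a sterol isomerase, was called lower by little (-0.24 ± 0.09, adjusted p = 0.0440) and lost the call without the block (0.375) and without replicate 1 or 3 (0.139 and 0.215). Mvk, the mevalonate kinase, was called higher (0.53 ± 0.13) but not without the block (adjusted p = 0.162) or replicate 3 (0.0706), and Tm7sf2 did not pass (0.21 ± 0.23).

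**Figure D5:**
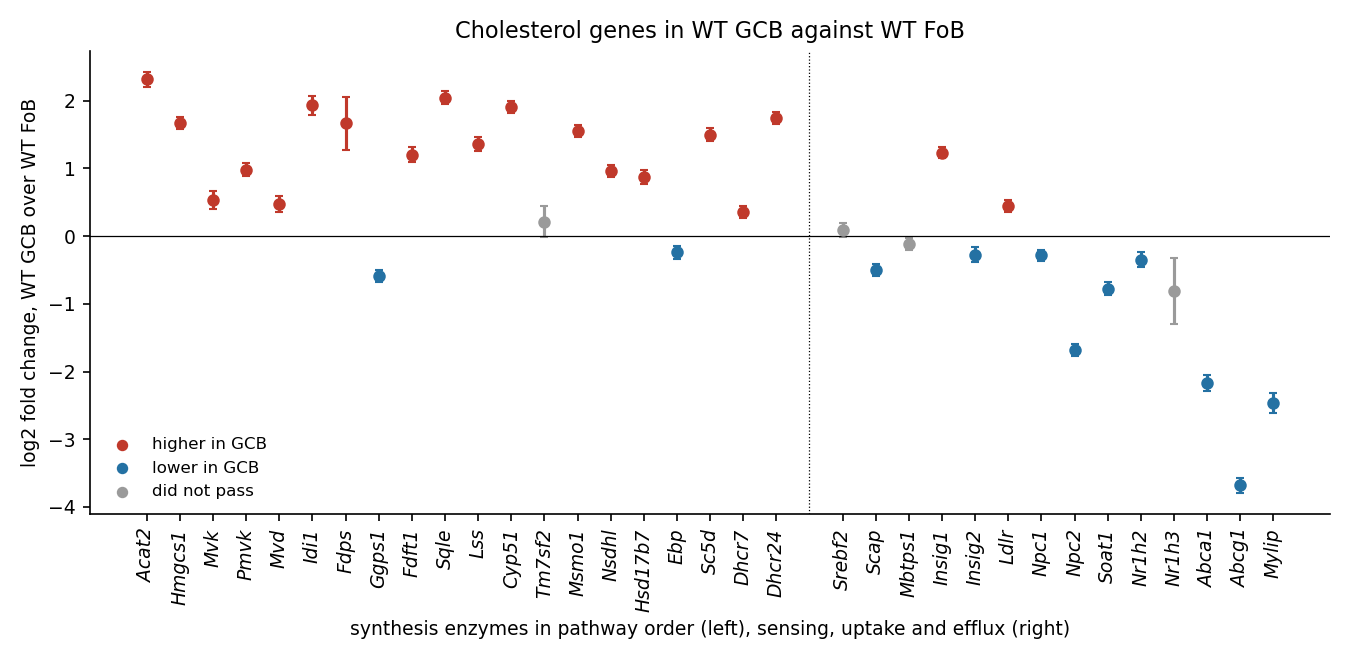
Points give the log2 fold change, GCB over FoB (vertical axis), with bars of 1 SE and colours for the call. Left of the dotted line are 20 enzymes of the cholesterol synthesis list in pathway order, with Ggps1 on a side branch. Right of it are genes of sterol sensing, uptake and efflux. The enzymes lie above 0 apart from Ggps1 and Ebp, while Abcg1, Mylip and Abca1 lie farthest below it on the right.

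Genes that sense, take up or export sterols did not follow the enzymes: 3 of 15 were higher (1 without the block and FoB replicate 1), 9 lower (5 without the block) and 3 did not pass (median -0.35). Abca1 and Abcg1, the exporters of cholesterol, were lower; Abcg1 was at 4.30, 6.38 and 6.71 CPM in GCB and 60.1, 72.0 and 90.3 CPM in FoB (-3.68 ± 0.11), and Abca1 at 34.9, 33.1 and 33.6 CPM in GCB and 125, 182 and 156 CPM in FoB (-2.17 ± 0.12). Mylip, a ligase that degrades the LDL receptor, was at 28.6, 18.9 and 26.6 CPM in GCB and 121, 140.2 and 144 CPM in FoB (-2.46 ± 0.14). Insig1, a sterol-sensing brake that SREBP proteins induce, was at 97.1, 93.2 and 84.0 CPM in GCB and 41.7, 38.5 and 36.7 CPM in FoB (1.23 ± 0.08). Srebf2, which encodes the regulator SREBP2, did not pass (0.09 ± 0.10).

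Glucose genes were 11 higher, 4 lower and 5 not past of 20 (median 0.99). Tpi1, the triose isomerase, was at 296, 365 and 336 CPM in GCB and 83.3, 98.4 and 92.9 CPM in FoB (1.86 ± 0.09), and Slc16a1, a lactate carrier, at 51.7, 76.1 and 41.4 CPM in GCB and 15.6, 14.2 and 12.01 CPM in FoB (1.98 ± 0.14). The glucose carriers went the other way, with Slc2a1 at 19.6, 28.7 and 28.7 CPM in GCB and 44.5, 53.3 and 64.4 CPM in FoB (-1.08 ± 0.10) and Slc2a3 at -1.07 ± 0.09, while Hk2, the first enzyme of the pathway, was higher (1.10 ± 0.13). Subunits of oxidative phosphorylation differed by less but evenly: 28 of 31 were higher and 0 lower (median 0.54), 15 without the block, and 10 without the block and FoB replicate 1. Sdhb, a subunit of complex II, was at 149, 192 and 194 CPM in GCB and 72.6, 101 and 97.5 CPM in FoB (0.99 ± 0.08). The share of mitochondrially encoded counts was highest in replicate 2 of both cell types, and its part in these differences was not tested.

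Of 18 serine, one-carbon and ATF4 genes, 13 were higher and 3 lower (median 0.95). Asns, the asparagine synthetase, was at 35.0, 51.3 and 31.0 CPM in GCB and 1.86, 1.21 and 1.09 CPM in FoB (4.77 ± 0.20). Psat1, of serine synthesis, was at 289, 370.0 and 278 CPM in GCB and 57.4, 55.8 and 45.1 CPM in FoB (2.56 ± 0.10), and Mthfd2, of the mitochondrial folate cycle, at 106, 131 and 112 CPM in GCB and 24.2, 23.4 and 21.9 CPM in FoB (2.32 ± 0.10). Atf4 itself did not pass (-0.11 ± 0.09). MYC and ribosome biogenesis genes were 10 higher, 3 lower and 8 not past of 21 (median 0.16), against 35.3% higher and 35.5% lower of all genes. Without the block 6 of them were higher, against 3215 of all 12877 genes tested, and 4 without the block and FoB replicate 1. Odc1, of polyamine synthesis, was at 1.46 ± 0.11 and Polr1a at -0.08 ± 0.09.

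Of 24 genes of B cell receptor signaling, 6 were higher, 11 lower and 7 did not pass (median -0.22), against 35.3% higher and 35.5% lower of all genes. The list's counts of higher and lower genes were 2 and 8 without the block, against 3215 and 3008 of all 12877 genes tested. They were 0 and 8 without the block and FoB replicate 1, against 2889 and 2793 of 13153. With the block, they were 4 and 11 without replicate 1, and 3 and 10 without replicate 3. Cd79a, a signaling chain of the receptor, was at 767, 976 and 1101 CPM in GCB and 1877, 3016 and 2505 CPM in FoB (-1.37 ± 0.11). Cr2, the complement receptor CD21, was at 340.0, 346 and 276 CPM in GCB and 1155, 1208 and 884 CPM in FoB (-1.75 ± 0.09), and Cd22 and Cd72, inhibitory coreceptors, differed by -0.999 ± 0.09 and -1.77 ± 0.09. Btk, a kinase of the pathway, did not pass (0.01 ± 0.08). Immediate early genes, which receptor signals and cell handling induce, were lower in 16 of 17 cases, and 0 were higher (median -2.18). Nr4a1, which reports antigen receptor signals, was at 7.64, 2.77 and 7.45 CPM in GCB and 77.6, 40.9 and 62.3 CPM in FoB (-3.39 ± 0.15). Fos was highest in replicate 1 of both cell types, at 345, 64.7 and 64.4 CPM in GCB and 531, 458 and 262 CPM in FoB. Its groups overlapped, and its log2 fold change of -1.82 ± 0.32 was -2.42 without replicate 1 and did not pass without the block (adjusted p = 0.0944).

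All 13 genes of MHC class II presentation were lower in GCB (median -1.13). Cd74, the invariant chain, was at 5289, 7429.7 and 7889 CPM in GCB and 11156, 20400.0 and 14350.1 CPM in FoB (-1.13 ± 0.13), and H2-Oa, which restrains peptide loading, was at 72.5, 95.1 and 109 CPM in GCB and 323, 534 and 408 CPM in FoB (-2.18 ± 0.12). Of 19 receptors and ligands of T cell help, 13 were lower and 4 higher (median -0.89). Cd40, the receptor for the T cell signal CD40L, was at 43.5, 47.8 and 54.2 CPM in GCB and 134, 159.8 and 148 CPM in FoB (-1.61 ± 0.09), and Cd274, which encodes PD-L1, was at 11.98, 8.72 and 7.84 CPM in GCB and 77.7, 67.2 and 54.8 CPM in FoB (-2.81 ± 0.10). Il2rg, the common cytokine receptor chain, differed by -1.74 ± 0.09, and Slamf6 did not pass (-0.11 ± 0.09).

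Genes of the BCL2 family and of cell death were 8 higher, 4 lower and 9 not past of 21 (median 0.22), so that the share higher was near the 35.3% of all genes. Bcl2, the survival protein of resting B cells, was at 8.90, 8.98 and 7.96 CPM in GCB and 122, 121 and 112 CPM in FoB (-3.78 ± 0.09). Bcl2l1, which encodes BCL-XL, was at 14.3, 23.4 and 25.2 CPM in GCB and 6.13, 6.69 and 8.91 CPM in FoB (1.51 ± 0.14). Mcl1, the survival protein that germinal center cells need, was at 572, 614 and 499 CPM in GCB and 836, 872 and 863 CPM in FoB (-0.62 ± 0.09). The BH3-only gene Pmaip1 did not pass (-0.01 ± 0.12).

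Interferon-stimulated genes were lower in all 26 cases tested, with a median of -1.89. Ifit1, an antiviral RNA-binding protein, was at 0.779, 1.05 and 1.37 CPM in GCB and 6.91, 6.82 and 6.57 CPM in FoB (-2.68 ± 0.24). Mx1, an antiviral GTPase, was at 2.299, 0.377 and 1.01 CPM in GCB and 35.6, 6.95 and 16.6 CPM in FoB (-4.01 ± 0.17). Gbp2, a guanylate-binding protein, was at 9.98, 12.2 and 8.47 CPM in GCB and 59.1, 65.6 and 44.5 CPM in FoB (-2.46 ± 0.10), and Irf7, a regulator of interferon genes, differed by -0.70 ± 0.10. NK cell markers, whose sums are given above, were lower in GCB too, and their part in this difference was not tested. The core of the interferon-stimulated response element, GAAANNGAA, a search added after the values were seen, was in 12 of 24 promoters of these genes (50%, with promoters at hand for 20 of the 26 genes), 7.30% of promoters of all genes tested and 8.56% of all promoters, and matches can overlap each other. It was in 5.5% of promoters of genes at least 2-fold higher and 10.5% of those at least 2-fold lower. As with the cell cycle lists, the share over the interferon list follows from which genes it holds, not from their levels. The 250 bases before the start are shown for Ifit1 and Gbp2, with the element in capitals.
Ifit1, chr19:34640639-34640888, plus strand: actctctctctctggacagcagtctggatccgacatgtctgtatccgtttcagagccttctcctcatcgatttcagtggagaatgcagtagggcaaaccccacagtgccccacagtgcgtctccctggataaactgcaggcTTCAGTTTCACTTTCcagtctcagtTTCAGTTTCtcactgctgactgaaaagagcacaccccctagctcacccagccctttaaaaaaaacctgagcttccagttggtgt
Gbp2, chr3:142620413-142620662, plus strand: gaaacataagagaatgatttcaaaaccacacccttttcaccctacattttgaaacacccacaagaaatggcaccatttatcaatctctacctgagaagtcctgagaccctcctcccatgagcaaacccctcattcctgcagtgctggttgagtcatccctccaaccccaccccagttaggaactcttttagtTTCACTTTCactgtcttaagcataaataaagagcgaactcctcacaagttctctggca
In Ifit1, 3 matches began 109, 103 and 84 bases before the start, and Gbp2 had 1 match, beginning 58 bases before it.

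Genes of the 2 fates that germinal center cells can take were mixed. Plasma cell genes were 9 higher, 4 lower and 1 not past of 14 (median 0.60). Jchain, which joins IgM and IgA into polymers, was at 1018, 1464 and 799 CPM in GCB and 78.2, 67.0 and 10.3 CPM in FoB (4.73 ± 0.40, 4.07 without replicate 3). Prdm1, which encodes the plasma cell regulator BLIMP1, did not pass, at 2.37, 3.94 and 2.50 CPM in GCB and 2.68, 2.03 and 2.51 CPM in FoB. Sdc1, the plasma cell surface protein CD138, was at 0.779, 2.06 and 1.17 CPM in GCB and 5.93, 13.04 and 11.3 CPM in FoB (-2.93 ± 0.20), and Xbp1, the regulator of secretion, at 166, 218 and 139.6 CPM in GCB and 96.5, 110.1 and 99.1 CPM in FoB (0.76 ± 0.11). Memory precursor genes, many of which the naive list also holds, were 11 lower and 4 higher of 16 (median -2.17). Hhex, a transcription factor of memory B cells, was at 8.57, 10.5 and 11.4 CPM in GCB and 121, 159 and 165 CPM in FoB (-3.86 ± 0.10), while Nt5e, the ecto-enzyme CD73, was at 40.6, 39.8 and 30.7 CPM in GCB and 3.25, 1.42 and 1.59 CPM in FoB (4.16 ± 0.20).

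The difference between cell types in WT was then set against the same difference in cKO mice, in a fit over all 12 RNA libraries with the replicate block. Of 13708 genes tested, 0 had a larger log2 fold change in WT than in cKO and 36 (0.263%) a smaller one, that is a more negative or less positive one, at an adjusted p under 0.05 by edgeR, and 1008 had an unadjusted p under 0.05. DESeq2 called 3 larger and 158 smaller, and by edgeR the 36 were 1 without the block, 5 without replicate 1 and 2 without replicate 2. Of the 36 genes, 32 were also called in WT alone. Dglucy, which encodes D-glutamate cyclase, differed most among the genes named here. It had a log2 fold change of -4.38 in WT and -0.99 in cKO (WT minus cKO -3.39 ± 0.19, adjusted p = 1.44e-06), with 0.890, 0.671 and 0.741 CPM in WT GCB and 18.7, 16.1 and 14.2 CPM in WT FoB. The positioning receptor Gpr183 was -3.40 in WT and -2.10 in cKO (adjusted p = 0.0176), and Ccr6, the receptor for CCL20, was -3.73 in WT and -2.11 in cKO (adjusted p = 0.0444). Both calls were lost without the block and without replicate 1 (adjusted p = 0.0765 for Gpr183 and 0.103 for Ccr6) or replicate 2.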

How the data were processed

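The authors deposited raw read counts for Ensembl genes, measured on polyadenylated RNA of sorted cells in libraries that were prepared by the Nextera method, per the labels' protocols. The submitters' processing notes name Bowtie2, MACS2 and edgeR and the genome build mm10. No version, read counter, annotation or use of strand is given in the sources used here, so reads of overlapping genes and near copies cannot be divided, and 101 of the 235 genes named overlap another annotated gene. The 4 ATAC-seq samples and the other deposited tables were not used here.

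The low-count filter of edgeR (filterByExpr) kept 12877 of 25640 genes, holding 99.89% to 99.94% of each library's counts, and left out 12763. Symbols were found for 25607 gene IDs. Pairs of libraries with identical counts numbered 0. TMM-scaled counts were fitted with edgeR 4.0.16 in R 4.3.3 (quasi-likelihood F test, Benjamini-Hochberg adjustment over all genes, threshold 0.05), with cell type and replicate number as terms. Residual degrees of freedom were 2, with a biological coefficient of variation of 0.108 (4 and 0.248 without the block). CPM are TMM-scaled, and log2 fold changes are GCB over FoB. Their standard error was derived from the test, as the absolute log2 fold change divided by the square root of the F statistic. The pairing came from the labels' replicate numbers, which the plan of the comparison set as a block. Same-numbered GCB and FoB libraries deviated together from their group means (correlations of 0.613 to 0.646 across genes). Different numbers gave -0.501 to -0.145. Deviations from a group mean cancel out within the group, so positive values for same numbers force negative ones on average for different numbers, which are no separate contrast. The comparison with cKO mice tested the difference of the cell type differences over 12 libraries.

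Genes were named by a rule: the 12 highest and 12 lowest log2 fold changes among genes called with and without the block, with at least 10 CPM in the higher group, no overlap and a symbol, leaving out immunoglobulin, T cell receptor, predicted and sex-linked genes; 4 members of each of 30 lists by smallest p and up to 2 by largest; and a short set of positioning and germinal center genes. Some genes it gives are not reported here. It leaves 188 genes, and 47 more were named after their values were seen. The comparison, its lists and its markers were chosen with earlier results of these data known. Lists are described by counts and medians, with no test over a list. DESeq2 1.42.0, limma 3.58.1 (voom), other scalings and filters, the fit without the block and leaving out each replicate number were the alternatives.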

Additional observations from a re-analysis of the deposited data

Results flagged for a closer look

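The log2 fold change, GCB over FoB, was more negative in WT than in cKO for 7 of the genes named, by the test of the difference itself in edgeR over 12 libraries. The difference of log2 fold changes was -3.39 for Dglucy, -1.98 for Fcrl5, -1.70 for Pml, -1.62 for Ccr6, -1.31 for Gpr183, -1.30 for Ccnd2 and -1.23 for Limk1. Dglucy passed under all 10 alternatives, with a highest adjusted p of 0.00140. Fcrl5, an Fc receptor-like gene of marginal zone cells, differed by -4.52 in WT and -2.54 in cKO (adjusted p = 0.0444). Pml, a nuclear body protein, differed by -3.76 in WT and -2.06 in cKO (adjusted p = 0.0335), Ccnd2, the D cyclin, by -3.04 in WT and -1.74 in cKO (adjusted p = 0.0233), and Limk1, the LIM kinase, by -2.89 in WT and -1.66 in cKO (adjusted p = 0.0294). The calls of Fcrl5, Pml, Ccr6, Gpr183, Ccnd2 and Limk1 were lost without the replicate block, without replicate 2 and without replicate 1, where the adjusted p was 0.227 for Fcrl5, 0.0765 for Pml, 0.0765 for Gpr183, 0.103 for Ccr6, 0.163 for Ccnd2 and 0.248 for Limk1, and those of Ccnd2 (0.0521) and Limk1 (0.0894) also without replicate 3. The calls of Fcrl5 and Ccr6 were lost with RLE factors too, those of Fcrl5, Ccr6 and Pml with library size only, and those of Fcrl5, Ccr6, Pml, Ccnd2 and Limk1 with the stricter filter. Of 10 alternatives, 4 kept the call of Fcrl5 and of Ccr6, 5 that of Pml, Ccnd2 and Limk1, and 7 that of Gpr183.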

How the results depend on the processing

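Over 12 alternatives, 176 of the 199 called genes named kept their call in every one, and of 2815 values 2737 kept direction and side of the threshold, 63 lost the call, 15 gained one and 0 reversed. Many of these genes were named for a small p or because they passed with and without the block. Their counts therefore do not stand for genes in general. Of all 9120 genes called in the main fit, 6223 were also called without the block. The replicate block mattered most: without it 17 named genes lost their call and the count of lower genes was 3008, against 4572 with it, and without both the block and FoB replicate 1 the counts were 2889 higher (4548 with the block) and 2793 lower. The cause was not tested beyond the wider spread given with the methods. A filter of 5 CPM in 3 libraries, which tests fewer genes, gave 1243 at least 2-fold higher and 1517 at least 2-fold lower. Leaving out 1 replicate number at a time gave 3988 to 4301 higher, 3897 to 4549 lower, 1972 to 2035 at least 2-fold higher and 2252 to 2409 at least 2-fold lower. No scaling shifted the median of all genes by more than 0.1 (log2), and 47.3% to 51.7% of called genes were higher in every setting. Every scaling used sets a gene against the rest of its library. These values therefore cannot show whether total RNA per cell differed. Higher and lower mean relative to the other RNA of the library.

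The comparison with cKO was less stable. Genes with a smaller log2 fold change in WT numbered 36, against 1 without the replicate block, 22 with RLE factors, 19 with library size only, 357 without the filter, 10 with the stricter filter, 158 with DESeq2 and 2 to 25 with 1 replicate number left out. Genes with a larger one numbered 0, against 4 without the filter, 3 with DESeq2 and 0 with any 1 number left out. The cause was not tested. The 6 WT libraries were of similar depth, and 3 libraries a group limit the precision.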
